A study of Mus musculus with 120 samples.

Results

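B6-Chr1MSM is a consomic mouse strain: it carries chromosome 1 of the strain MSM, and the series text describes it as a chromosome substitution strain with C57BL/6J (B6) as its control. The liver transcript levels of its 2 males were set against those of 2 B6 males, and against the 54 males of 27 other consomic strains that carry some other MSM chromosome, part of one, or MSM mitochondrial DNA. Its arrays were picked by the strain label, 4 of the 120 in the series, with 2 arrays per male that were averaged. The animal number in the sample names was read as identifying the male; no label says so outright. MSM, measured in 2 males, stands beside these groups as the donor of the chromosome. All males were 10 weeks old and had been fasted for 4 h before liver collection, so no group differed from another by treatment. The males of a strain are the replicates here, and no label says whether they shared a litter.

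A consomic strain is made by repeated backcrossing of a donor strain to a host while selecting for a single donor chromosome. MSM derives from Japanese wild mice and is genetically distant from B6. A gene on the substituted chromosome then comes with donor regulatory sequence, while genes on the other chromosomes keep that of the host. The comparison asks which liver transcripts differ with chromosome 1 from MSM, and whether any of them lie on other chromosomes. Chromosome 1 holds liver genes of several kinds: flavin-containing monooxygenases, glutathione transferases, aldehyde oxidases, complement regulators and antithrombin, mitochondrial enzymes, pentraxins and Fc receptors.

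All 12 measured hepatocyte markers passed the intensity filter, as did 11949 of all 18193 genes. The counts were 17 of 18 for Kupffer cell, 17 of 18 for stellate and fibroblast and 12 of 14 for endothelial markers. They were 6 of 16 for lymphocyte, 4 of 8 for neutrophil and 5 of 7 for pancreas markers. The filter asks only that at least 2 of 60 males exceed the median of all values. Passing it therefore does not show that a cell type was present. The deposited values are log2 signals between 6.34 and 14.82 with array medians of 7.416 to 7.417. Their deviations are compressed by a factor that differs between probe sets: the residual SD, which is the spread between same-strain males, was 5.95e-05 in the median gene, and from 1.02e-05 (10th percentile) up to 0.000806 (90th percentile) across genes. A difference on this scale is therefore no log2 fold change. The rule that picked the genes named here ranked most of them by this difference, so it favoured genes with wide deposited scales, and no gene's difference is read as larger than another's. Each difference is given on the deposited scale with its standard error, and again in units of the gene's own residual SD. Over the 8 arrays of B6-Chr1MSM and B6, the deviations of genes, scaled by their residual SD, had a median Spearman correlation of 0.27 between arrays of the same male and -0.015 between the strains. Between arrays of different males it was -0.22 to 0.15 in B6-Chr1MSM (median -0.02) and 0.25 to 0.48 in B6 (median 0.31), over 4 pairs each, so over all genes the 2 B6-Chr1MSM males resembled each other no more than they resembled the B6 males.

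Of 18193 genes with a probe set, 11949 were tested, 661 of them on chromosome 1 (of 1057 measured there) and 11288 elsewhere. Against B6, limma with Benjamini-Hochberg adjustment over all tested genes called 45 genes at an adjusted p below 0.05, which is 0.377% of those tested (0.0921% higher and 0.285% lower). On chromosome 1, 44 genes were called, or 6.66% of those tested there, 11 higher and 33 lower in B6-Chr1MSM. Elsewhere 1 gene was called, Nnt on chromosome 13, lower. At an unadjusted p below 0.05 the shares were 27.8% on chromosome 1 (184 genes) and 5.05% elsewhere (570 genes). The median absolute difference was 1.11 residual SDs over chromosome 1 genes and 0.722 over the others.

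Against the 27 consomic strains, whose mean rests on 54 males, 85 genes were called, or 0.711% of those tested (0.218% higher and 0.494% lower). Chromosome 1 held 84 of these, 12.7% of its tested genes, with 26 higher and 58 lower, and Nnt was again the gene elsewhere. After quantile normalization of the deposited values, 57 genes on chromosome 1 and 246 elsewhere (4 higher and 242 lower) were called in this comparison, and 12 and 6 against B6. Of the chromosome 1 genes, 42 were called the same way against both references, 10 higher and 32 lower; over all genes 43 were, or 0.36%. Of the 26 genes named by rule, quantile normalization left 10 called against B6: Col5a2, Mgst3, Fmo1, Cnot11, Casp8, Gas5, Hibch, Prox1os, Ints7 and Nnt. Pam and Pikfyve were called against B6 alone, and 42 genes against the 27 strains alone. Both contrasts use the same 2 B6-Chr1MSM males, so these counts are no independent repeat. The fit on all 60 males gives the test its 30 residual degrees of freedom; with the 4 males of B6-Chr1MSM and B6 alone, no chromosome 1 gene passed. Without B6-Chr1MSM male 1 or 2, chromosome 1 had 19 or 17 calls against B6 and 40 or 32 against the 27 strains; without B6 male 1 or 2 it had 15 or 25 against B6.

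**Figure D1:**
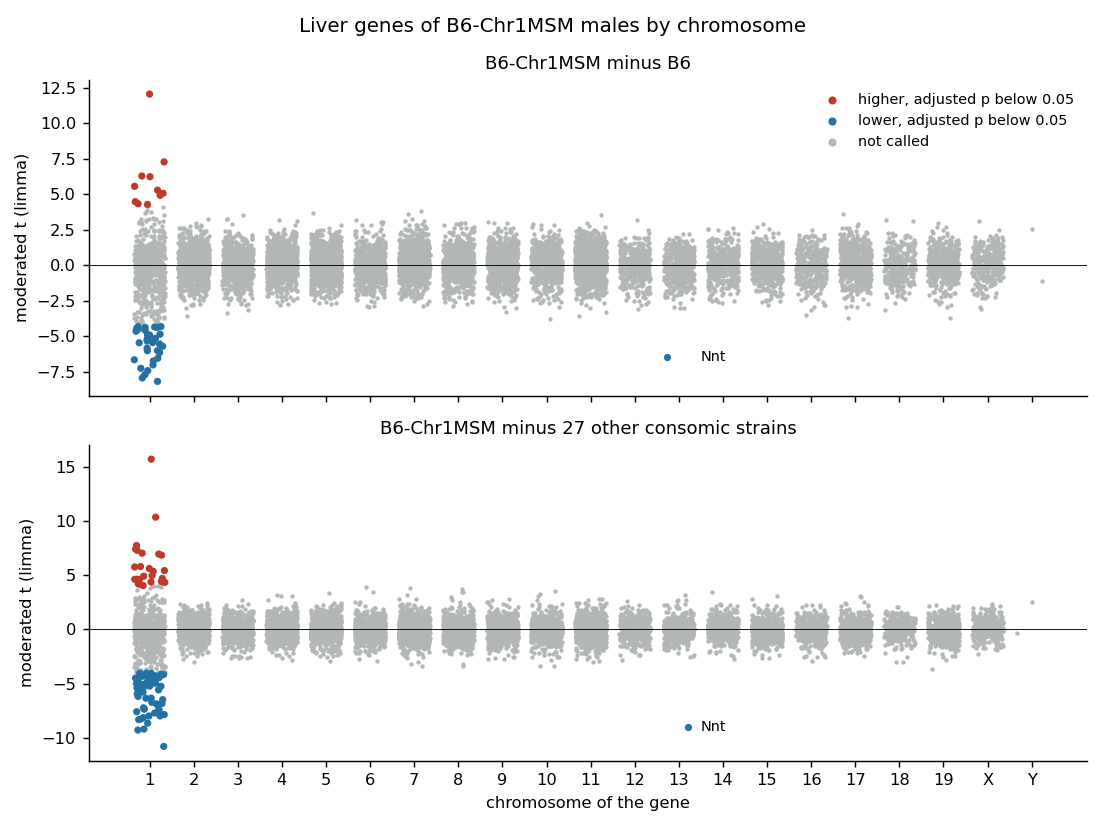
Moderated t of every tested gene by chromosome, for B6-Chr1MSM minus B6 (top) and B6-Chr1MSM minus the 27 other consomic strains (bottom), with called genes coloured. Chromosome 1 holds 44 of 45 called genes in the upper panel and 84 of 85 in the lower, and Nnt stands alone on chromosome 13.

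The males can also be ranked gene by gene, which needs no common scale between genes. Genes for which both B6-Chr1MSM males lay beyond all 56 males of B6 and the 27 strains numbered 75 of 11949, or 0.628% (0.142% above and 0.485% below). Of these, 72 were on chromosome 1, with 17 above and 55 below, and 3 elsewhere, all below. After quantile normalization the count was 32 on chromosome 1 and 77 elsewhere. Of the 42 chromosome 1 genes called against both references, 35 were among them. All 44 genes called against B6 had both B6-Chr1MSM males beyond both B6 males, as did 43.2% of all tested genes.

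The called genes were spread over the length of the chromosome, apart from a stretch in its distal part. In 5 equal parts by gene order from the centromere, 7, 4, 10, 12 and 11 genes were called against B6, and 15, 16, 19, 18 and 16 against the 27 strains. Of 660 pairs of neighbouring tested genes, 15 were both called against the 27 strains, such as Fmo1 and Fmo2, and the longest run of called genes was 3. The longest stretch without a call held 55 tested genes, between Mgst3 and Kmo, and no gene in it was called against B6 either.

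**Figure D2:**
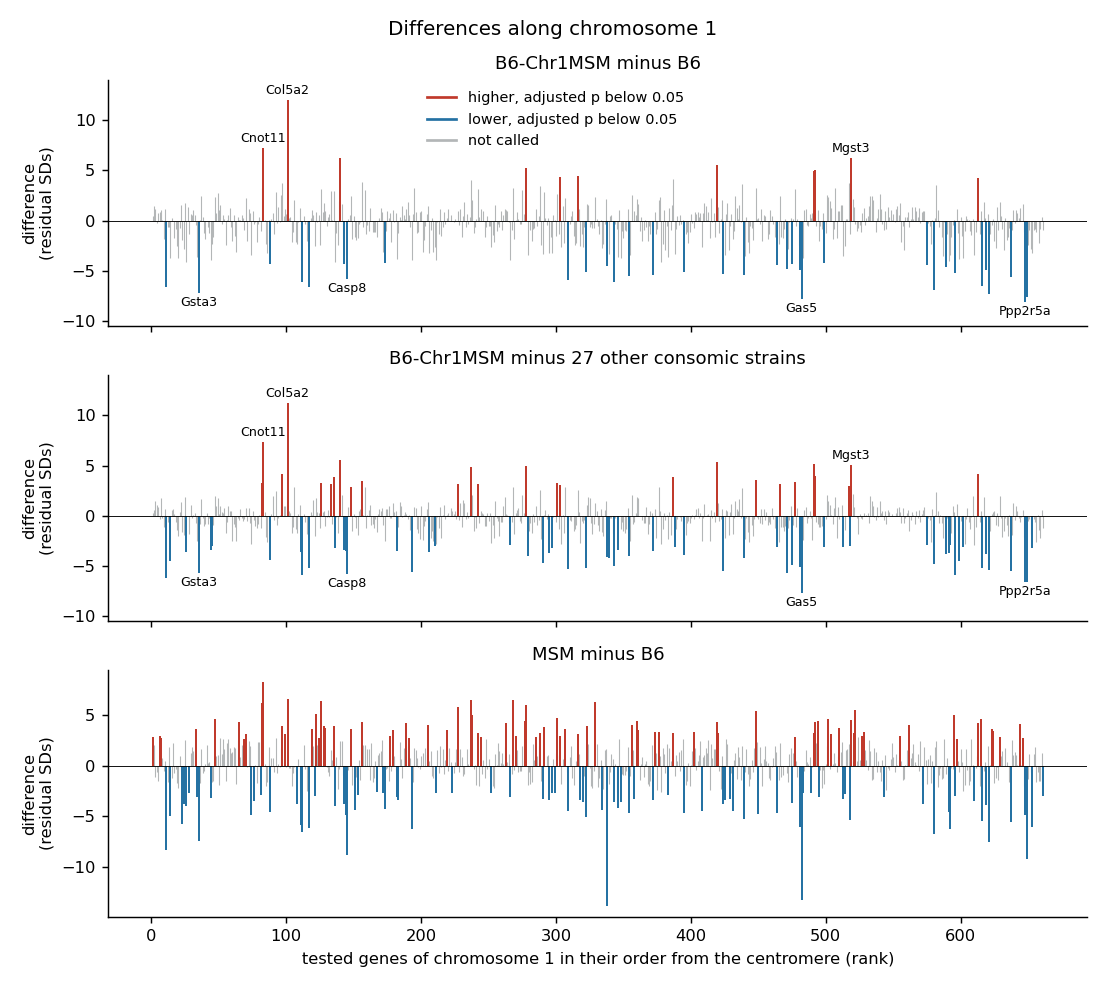
Difference in residual SDs of the 661 tested chromosome 1 genes in their order from the centromere, for B6-Chr1MSM minus B6 (top), B6-Chr1MSM minus 27 consomic strains (middle) and MSM minus B6 (bottom). Coloured lines passed an adjusted p of 0.05. They occur from the proximal to the distal part of the chromosome, with higher and lower genes interspersed. In the top and middle panels none lies between Mgst3 and Kmo.

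The promoters of 3 genes picked from the called ones are shown as examples. They are a membrane-bound glutathione transferase that was higher (Mgst3), a cytosolic one that was lower (Gsta3), and the lower noncoding gene with the most concordant probe sets (Gas5). Whether promoter sequence bears on their differences was not tested. Each window runs from 250 bases before to 50 after the RefSeq start, 5′ to 3′ on the strand of the gene, on GRCm38.p6. The letters are those of the B6 reference, and MSM sequence was not analysed here. Capitals mark matches on either strand to the core of the antioxidant response element (TGACNNNGC), to the TATA box (TATAAA), to the CCAAT box (its name gives its letters) or to the GC box (GGGCGG).
Mgst3, chr1:167393792-167394091, minus strand: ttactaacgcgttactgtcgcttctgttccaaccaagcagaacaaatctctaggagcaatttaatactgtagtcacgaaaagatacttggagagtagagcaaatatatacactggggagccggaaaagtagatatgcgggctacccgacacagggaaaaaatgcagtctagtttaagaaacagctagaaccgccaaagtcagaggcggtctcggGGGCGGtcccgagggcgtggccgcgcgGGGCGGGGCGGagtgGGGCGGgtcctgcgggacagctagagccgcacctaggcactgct
Gsta3, chr1:21240335-21240634, plus strand: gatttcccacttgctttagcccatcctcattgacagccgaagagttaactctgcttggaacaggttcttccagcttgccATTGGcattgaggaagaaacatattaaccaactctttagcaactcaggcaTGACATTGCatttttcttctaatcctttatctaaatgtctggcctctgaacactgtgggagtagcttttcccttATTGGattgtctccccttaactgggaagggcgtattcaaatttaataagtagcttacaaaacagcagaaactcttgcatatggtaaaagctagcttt
Gas5, chr1:161034351-161034650, plus strand: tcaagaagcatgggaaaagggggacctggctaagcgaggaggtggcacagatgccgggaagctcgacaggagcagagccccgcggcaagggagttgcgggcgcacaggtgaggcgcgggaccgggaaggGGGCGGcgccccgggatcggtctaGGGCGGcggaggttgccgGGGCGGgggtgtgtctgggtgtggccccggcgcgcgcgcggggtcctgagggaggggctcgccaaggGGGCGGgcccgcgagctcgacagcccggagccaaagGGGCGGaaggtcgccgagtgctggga

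Mgst3 held 4 matches to the GC box, 2 of which overlap by a base, and Gas5 held 5, in the first of its 2 windows in the RefSeq table. Gsta3 held 1 match to the antioxidant response element core and 2 to the CCAAT box, and none to the GC box. Over the 32851 windows of the table, 12.4% held a match to the antioxidant response element core, 13.6% to the TATA box, 37.4% to the CCAAT box and 35.7% to the GC box. These are matches of letters, not sites shown to be bound. Of the 26 genes named by rule below, 20 had a window in the table.

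Among genes of the extracellular matrix, Col5a2 was the gene with the lowest adjusted p of the whole comparison. It encodes the alpha-2 chain of type V collagen, a fibril-forming collagen that in liver is made mostly by stellate cells and fibroblasts. Its level was 7.8707 and 7.9282 in the B6-Chr1MSM males, 7.6868 and 7.7476 in the MSM males, and 7.5014 and 7.4904 in the B6 males; the 54 males of the other consomic strains ran from 7.4923 to 7.6572 with a median of 7.5108. Both B6-Chr1MSM males were above every other male, and both MSM males were above all but them. The difference from B6 was 0.404 ± 0.0335 (SE, n = 2 males each), or 11.9 residual SDs, with a limma adjusted p of 4.49e-09. Another Col5a2 probe set, too dim for the filter, differed by 17.1 residual SDs in the same direction.

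Among the 14 tested matrix and growth factor genes of chromosome 1, Col5a2 alone was called against B6, and Prelp, a small leucine-rich proteoglycan, was called in addition against the 27 strains, at -3.05 residual SDs (limma adjusted p = 0.0266). Col3a1, which lies next to Col5a2 on the chromosome, differed from B6 by 0.61 residual SDs (adjusted p = 0.955). Of the 17 tested stellate and fibroblast markers, Col5a2 was again the called one; the median of the list was 0.332 residual SDs, against 0.0949 over all tested genes. In whole liver, more cells of a type and more RNA per cell cannot be told apart.

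The drug-metabolism group of chromosome 1 had 13 tested genes, of which 3 were higher and 2 lower than in B6, against 1.66% higher and 4.99% lower over all tested genes of the chromosome. The 3 higher were Mgst3, Fmo1 and Fmo2. Mgst3, a membrane-bound enzyme that conjugates and reduces lipid peroxides with glutathione, measured 8.4444 and 8.4356 in the B6-Chr1MSM males, 8.4278 and 8.424 in the MSM males and 8.3887 and 8.3859 in the B6 males. The 54 other consomic males lay between 8.3795 and 8.4194, below both B6-Chr1MSM males and both MSM males. Its difference from B6 was 0.0527 ± 0.00844 (SE), 6.18 residual SDs, with a limma adjusted p of 0.000557. A further probe set differed by 2.3 residual SDs (limma adjusted p = 0.724 in the fit of every probe set).

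Fmo1 and Fmo2 are neighbouring flavin-containing monooxygenases, which oxygenate nitrogen and sulfur in drugs and diet-derived amines. Fmo1 measured 10.6659 and 10.6647 in the B6-Chr1MSM males, 10.6647 and 10.6626 in the MSM males and 10.6608 and 10.6599 in the B6 males, with 10.658 to 10.6658 in the 54 males. The B6-Chr1MSM males were above both B6 males, and 1 of them fell inside the range of the other consomic males (4.88 residual SDs, limma adjusted p = 0.0107, and up to 0.265 with 1 male left out). Fmo2 was represented by 5 probe sets. The brightest measured 8.7991 and 8.799 in the B6-Chr1MSM males, 8.7985 and 8.7991 in the MSM males and 8.7973 and 8.7974 in the B6 males, a difference of 5.03 residual SDs (adjusted p = 0.0074, and up to 0.221 with 1 male left out) that left the B6-Chr1MSM males inside the range of the 54 others. On 2 further probe sets the same gene was higher by 10.3 and 11.6 residual SDs, with adjusted p of 7.18e-08 and 8.38e-09 in the fit of every probe set. All 5 differed in the same direction.

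The 2 lower genes were Gsta3 and Kmo. Gsta3, an abundant alpha-class glutathione transferase of hepatocytes, measured 12.64 and 12.6395 in the B6-Chr1MSM males, 12.6398 and 12.6396 in the MSM males and 12.6408 and 12.641 in the B6 males. The 54 males ran from 12.6401 to 12.6411, so that both B6-Chr1MSM males and both MSM males were below all of them. The difference from B6 was -0.00114 ± 0.000158 (SE), -7.18 residual SDs, with a limma adjusted p of 6.98e-05, and 0.704 after quantile normalization. A further probe set of Gsta3 differed by -2.78 residual SDs (limma adjusted p = 0.521 in the fit of every probe set). Kmo, which hydroxylates kynurenine in tryptophan breakdown, differed by -4.44 residual SDs (adjusted p = 0.031).

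The aldehyde oxidase genes Aox1 and Aox3 lie next to each other and differed in opposite directions. They missed the threshold against B6, at 2.97 residual SDs for Aox1 (limma adjusted p = 0.443) and -4.11 for Aox3 (adjusted p = 0.0606). Against the 27 strains Aox1 was higher by 3.88 residual SDs (adjusted p = 0.00175) and Aox3 was lower, at -3.17 (adjusted p = 0.0192). Aldh9a1, an aldehyde dehydrogenase, was also lower against the 27 strains, at -3.04 residual SDs (adjusted p = 0.0278). Ephx1, the microsomal epoxide hydrolase, differed by 0.36 residual SDs from B6, and Hsd11b1, which regenerates active glucocorticoid, by -0.04.

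**Figure D3:**
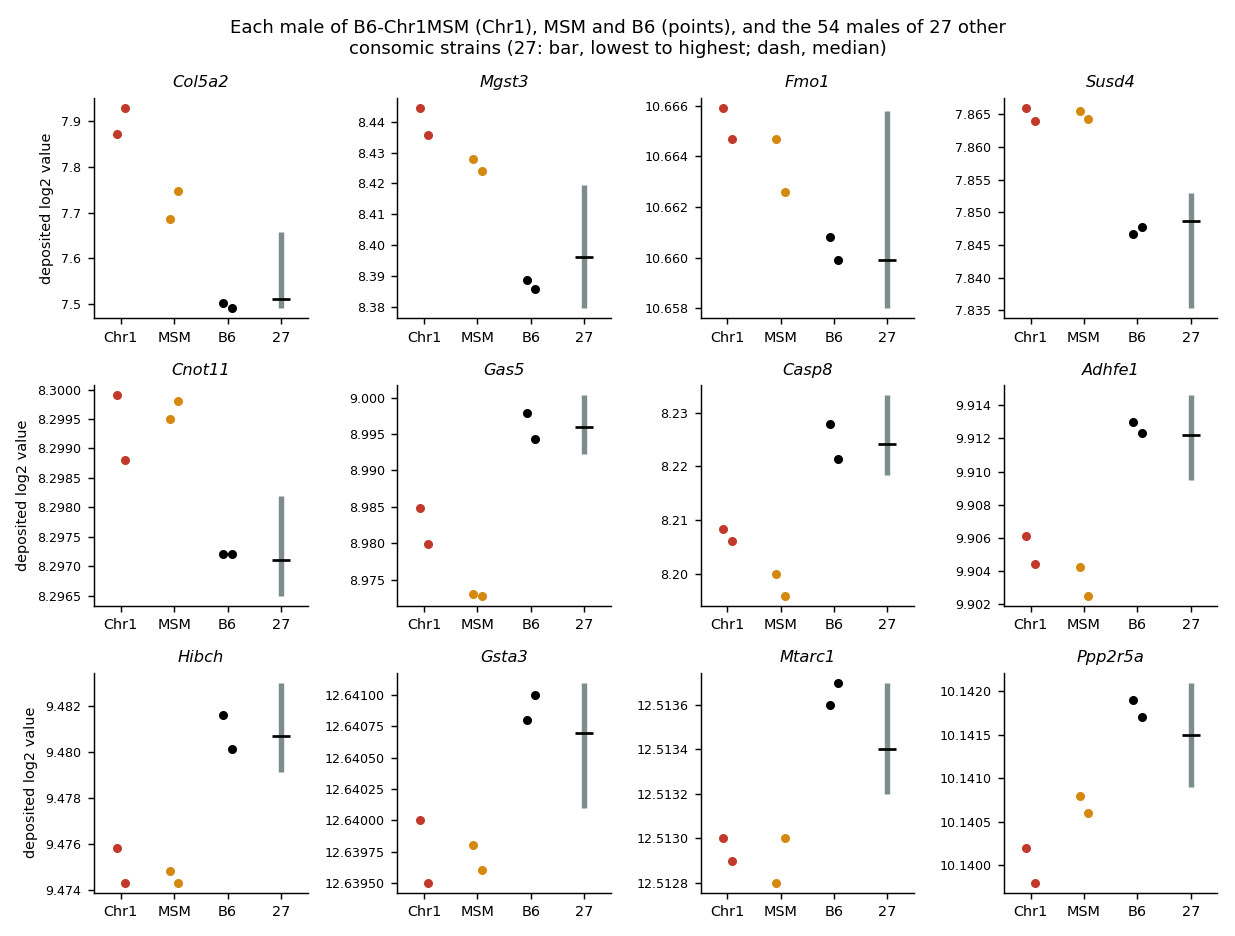
Deposited log2 values of 12 called chromosome 1 genes in each B6-Chr1MSM, MSM and B6 male (points) and in the 54 males of the other consomic strains (bar from lowest to highest, dash at the median); each panel has its own axis, which does not start at 0. In Col5a2, Mgst3, Susd4 and Cnot11 both B6-Chr1MSM males lie above the bar, in Fmo1 1 of them does, and in the 7 lower genes both lie below it.

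Of 27 tested genes of amino acid, nitrogen and energy metabolism on chromosome 1, 3 were lower than in B6 and 0 higher, against 4.99% lower and 1.66% higher over all tested genes of the chromosome. An unadjusted p below 0.05 was found for 12 of them, against 27.8%, and the median was -0.953 residual SDs. The 3 were Hibch, Ndufb3 and Slc19a2. Hibch, a mitochondrial hydrolase of valine breakdown, measured 9.4758 and 9.4743 in the B6-Chr1MSM males, 9.4748 and 9.4743 in the MSM males and 9.4816 and 9.4801 in the B6 males. Both B6-Chr1MSM and both MSM males were below the 54 males, whose lowest was 9.4791 (-6.07 residual SDs from B6, limma adjusted p = 0.000713, and up to 0.0754 with 1 male left out). Ndufb3, an accessory subunit of respiratory complex I, was lower, at -4.32 residual SDs (adjusted p = 0.0405, and up to 0.587 with 1 male left out).

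Slc19a2 is a thiamine transporter. On 1 of its probe sets it differed by -2.35 residual SDs from B6 (limma adjusted p = 0.678 in the fit of every probe set). Its brightest probe set differed by -4.27 residual SDs (limma adjusted p = 0.0437, and up to 0.711 with 1 male left out) and left the B6-Chr1MSM males inside the range of the 54 others, while a further probe set differed by -8.18 (adjusted p = 7.69e-06 in the fit of every probe set). Against the 27 strains, Agxt, which detoxifies glyoxylate in peroxisomes, was also lower (-3.74 residual SDs, adjusted p = 0.00275), and Hspe1, the mitochondrial co-chaperonin, was higher (3.29, adjusted p = 0.0124). Cps1, the entry enzyme of the urea cycle, differed from B6 by -2.15 residual SDs (adjusted p = 0.776) and Glul, glutamine synthetase, by 0.56 (adjusted p = 0.956).

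A pair of enzymes of 2-hydroxyglutarate was lower as well. Adhfe1, a mitochondrial transhydrogenase that forms D-2-hydroxyglutarate, measured 9.9061 and 9.9044 in the B6-Chr1MSM males, 9.9042 and 9.9025 in the MSM males and 9.913 and 9.9123 in the B6 males. D2hgdh, which oxidises that product, measured 9.5917 and 9.5918 in the B6-Chr1MSM males, 9.5926 and 9.5927 in the MSM males and 9.5959 and 9.5952 in the B6 males. In both genes the B6-Chr1MSM and MSM males were all below the lowest of the 54 males, which was 9.9095 for Adhfe1 and 9.5934 for D2hgdh. The differences from B6 were -6.66 residual SDs (limma adjusted p = 0.000228, and 0.186 after quantile normalization) and -5.94 (adjusted p = 0.00091, up to 0.0701 with 1 male left out and 0.19 after quantile normalization). Each gene has a further probe set that passed the same threshold in the same direction, at -4.22 and -4.76 residual SDs.

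Mtarc1 and Adss add to the lower enzymes. Mtarc1, a molybdenum enzyme of the mitochondrial outer membrane whose human variants are known for their link to fatty liver, measured 12.513 and 12.5129 in the B6-Chr1MSM males, 12.5128 and 12.513 in the MSM males and 12.5136 and 12.5137 in the B6 males. All 4 males with the MSM chromosome were below the 54 others, which began at 12.5132 (-7.34 residual SDs from B6, limma adjusted p = 6.36e-05, and 0.936 after quantile normalization). A further probe set of Mtarc1 differed by -1.5 residual SDs from B6 (limma adjusted p = 0.826 in the fit of every probe set) and -0.46 from the 27 strains. Adss, adenylosuccinate synthase of AMP synthesis, was lower, at -6.94 residual SDs (adjusted p = 0.000118).

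Casp8, the initiator caspase of death receptors, measured 8.2083 and 8.206 in the B6-Chr1MSM males, 8.1999 and 8.1959 in the MSM males and 8.2278 and 8.2213 in the B6 males. The 54 males began at 8.2183, above all 4 males with the MSM chromosome, and the MSM males were lower than the B6-Chr1MSM males. Its difference from B6 was -0.0174 ± 0.00297 (SE), -5.78 residual SDs, with a limma adjusted p of 0.00137, and up to 0.18 with 1 male left out.

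Gas5 is a noncoding host gene of small nucleolar RNAs. It measured 8.9849 and 8.9799 in the B6-Chr1MSM males, 8.973 and 8.9728 in the MSM males and 8.9979 and 8.9943 in the B6 males. The 54 males ran from 8.9923 to 9.0003, above both B6-Chr1MSM and both MSM males, and the MSM males were the lowest. The difference from B6 was -0.0137 ± 0.00173 (SE), -7.84 residual SDs, with a limma adjusted p of 2.66e-05. All 4 probe sets of Gas5 were lower, from -2.75 to -7.97 residual SDs, and 2 of them passed the threshold.

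Ppp2r5a and Ints7 are neighbours near the distal end. Ppp2r5a, a regulatory subunit of protein phosphatase 2A, measured 10.1402 and 10.1398 in the B6-Chr1MSM males, 10.1408 and 10.1406 in the MSM males and 10.1419 and 10.1417 in the B6 males, with 10.1409 to 10.1421 in the 54 others. Ints7, a subunit of the Integrator complex that processes small nuclear RNAs, measured 7.9145 and 7.9142 in the B6-Chr1MSM males, 7.9141 and 7.9139 in the MSM males and 7.9157 in both B6 males, with 7.9151 to 7.916 in the others. In both genes all males with the MSM chromosome were below all males without it. The differences from B6 were -8.08 residual SDs for Ppp2r5a (limma adjusted p = 2.16e-05, and 0.927 after quantile normalization) and -7.62 for Ints7 (adjusted p = 3.69e-05). In the fit of every probe set, a further probe set of Ppp2r5a differed by -1.41 residual SDs (limma adjusted p = 0.835). A further probe set of Ints7 differed by -3.63 there (adjusted p = 0.155).

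Among the higher genes, Cnot11, a subunit of the CCR4-NOT complex that shortens mRNA tails, measured 8.2999 and 8.2988 in the B6-Chr1MSM males, 8.2995 and 8.2998 in the MSM males and 8.2972 in both B6 males. The 54 males ended at 8.2982, below all 4 males with the MSM chromosome. The difference was 7.21 residual SDs (limma adjusted p = 6.98e-05), and a further probe set was higher by 5.55 (adjusted p = 0.0026 in the fit of every probe set). Susd4, a membrane protein that inhibits complement, measured 7.8659 and 7.864 in the B6-Chr1MSM males, 7.8654 and 7.8642 in the MSM males and 7.8467 and 7.8477 in the B6 males, with at most 7.8529 in the others (4.24 residual SDs, adjusted p = 0.0445, and up to 0.543 with 1 male left out).

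The other higher genes named by rule were Ube2f, a conjugating enzyme for NEDD8, at 5.24 residual SDs (limma adjusted p = 0.00464), Stk25, a serine/threonine kinase, at 4.29 (adjusted p = 0.0418), Nif3l1 at 6.23 (adjusted p = 0.000523) and the RNA helicase Ddx59 at 5.54 (adjusted p = 0.00267). Against the 27 strains, Nif3l1 and Ddx59 lost their direction after quantile normalization. The other lower ones were Asnsd1, a protein with an asparagine synthetase domain, at -6.58 (adjusted p = 0.000256, with its direction against B6 turned by quantile normalization), Brox at -6.47 (adjusted p = 0.000316) and Prox1os, an antisense transcript at the Prox1 locus, at -5.63 (adjusted p = 0.00196). With 1 male left out, the adjusted p reached 0.0969 for Ube2f, 0.724 for Stk25, 0.0839 for Nif3l1, 0.194 for Ddx59 and 0.0615 for Prox1os. Prox1 itself, a transcription factor of hepatocyte identity, differed by -0.76 residual SDs (adjusted p = 0.937).

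In the complement and coagulation groups of chromosome 1, the genes called on their brightest probe sets were C4bp and Serpinc1, both lower. C4bp, a plasma protein that binds complement C4b, was lower at -5.49 residual SDs (limma adjusted p = 0.00278), while Cfhr2, Cd46 and Cr1l of its group were not called. The brightest probe set of Cfhr2 differed by -1.8 residual SDs (adjusted p = 0.817). A further probe set of Cfhr2 was lower, at -10.51 residual SDs (limma adjusted p = 5.77e-08 in the fit of every probe set). Serpinc1, antithrombin, was called out of 4 tested genes, at -4.94 residual SDs (adjusted p = 0.0111). F5, coagulation factor V, differed by 0.75 residual SDs and F13b, a factor XIII subunit, by -0.59, neither past the threshold.

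Other well-known chromosome 1 families had no called member against either reference. These were the 3 tested pentraxin and apolipoprotein genes, with Apcs at 0.36 and Crp at 0.91 residual SDs from B6, and the interferon-inducible Ifi200 genes Ifi203, Ifi209 and Mndal. The others were 8 Fc receptor and SLAM genes and 11 nuclear receptors and transcription factors. With 6.66% of tested chromosome 1 genes called against B6, groups of this size could hold none without standing apart. These pentraxin, apolipoprotein, Ifi200, Fc receptor and SLAM genes all lie in the uncalled stretch between Mgst3 and Kmo, so their groups are not separate cases. In the direct contrast with MSM, Mndal, Ifi209, Fcgr3, Fcgr4 and Fcer1g were higher in B6-Chr1MSM (limma adjusted p from 0.000614 in Mndal to 0.0446 in Fcer1g). The others of these genes did not pass. The Fc receptor and SLAM genes had differences of 0.176 to 2.41 residual SDs from B6, with a median of 1.45, and none passed. Against the 27 strains they ran from -0.76 in Fcrla to 1.99 in Fcgr2b. Nr1i3, the xenobiotic receptor CAR, differed by 0.26 residual SDs (adjusted p = 0.982).

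The remaining 16 called genes complete the count of 44. Pam, which amidates peptides, was higher by 4.44 residual SDs. Lower were 2310009B15Rik, 4930523C07Rik, C730036E19Rik, Ahctf1, Ccdc93, Cryzl2, Dbi, Elk4, H3f3a, Mrps9, Phlpp1, Pikfyve, Taf1a, Tmem183a and Tor1aip2, between -4.27 residual SDs in Pikfyve and -6.11 in Ccdc93. They include an acyl-CoA binding protein (Dbi), a variant histone H3 gene (H3f3a) and a protein of the mitochondrial ribosome (Mrps9). Elk4 and Mrps9 each had a further probe set that was higher, at 4.36 and 5.12 residual SDs. These probe sets had limma adjusted p of 0.0376 and 0.00656 in the fit of every probe set. Dbi measured 12.2787 and 12.2792 in the B6-Chr1MSM males, 12.2769 and 12.2773 in the MSM males and 12.2799 in both B6 males. The MSM males were below the B6-Chr1MSM males, and 1 of the B6-Chr1MSM males reached the lowest of the 54 others, 12.2792.

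The probe sets of a gene mostly gave the same direction. Of the 25 chromosome 1 genes named by rule, 17 had further probe sets, 30 in all. The direction matched that of the first in 28 of these, and in all 23 that were bright enough to be tested. In the fit of every named probe set, where 0.401% of 19429 were called, 11 of the 30 passed in the same direction and 0 in the opposite one, in 8 of the 17 genes. That fit called 75 of 1125 probe sets on chromosome 1, belonging to 59 genes, and 3 of 18304 elsewhere, which were 2 of Nnt and 1 of Cryz. Outside the 25 named genes, it called probe sets of Elk4 and of Mrps9 in both directions. Among probe sets without a single gene name, 11 of 3122 were called, or 0.352%, near the share among named genes. MSM sequence under the probes was not analysed here, so a different transcript level and an MSM base under a probe cannot be told apart.

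Outside chromosome 1, Nnt was the called gene. It encodes the nicotinamide nucleotide transhydrogenase of the inner mitochondrial membrane, which makes NADPH, and C57BL/6J mice are known to carry a deletion within it. Its level was 8.0699 and 8.047 in the B6-Chr1MSM males, 8.1193 and 8.1228 in the MSM males and 8.0938 and 8.0907 in the B6 males. The B6-Chr1MSM males were below all 56 males of B6 and the other consomic strains, of which the lowest was 8.0804, and the MSM males were above B6. The difference from B6 was -0.0338 ± 0.00524 (SE), -6.39 residual SDs, with a limma adjusted p of 0.000357, and it was no longer called without B6-Chr1MSM male 2 (adjusted p = 0.101).

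Of the other strains, B6-Chr13TMSM, labelled as carrying part T of MSM chromosome 13, where Nnt lies, measured 8.1227 and 8.1235, and B6-Chr18MSM measured 8.1139 and 8.1115. All 4 values were above both B6 males. A further probe set of Nnt was lower in B6-Chr1MSM, at -4.98 residual SDs (limma adjusted p = 0.00805 in the fit of every probe set), and another, too dim for the filter, differed by -0.57. Besides Nnt, Rhou and Tmed8 had both B6-Chr1MSM males below all 56 males; they differed from B6 by -1.07 and -2.01 residual SDs and were not called (adjusted p of 0.893 and 0.784).

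**Figure D4:**
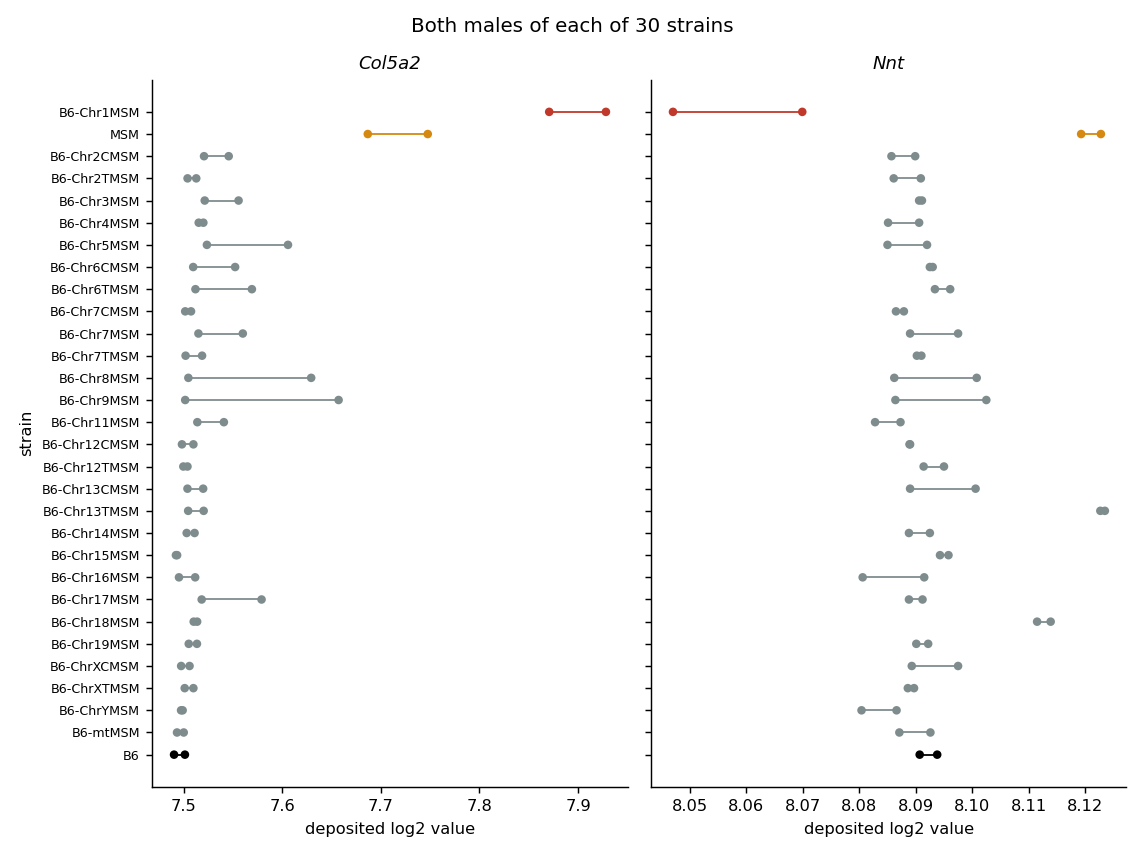
Deposited log2 values of Col5a2 (left) and Nnt (right) in both males of each of the 30 strains, a line joining the males of a strain. For Col5a2 the B6-Chr1MSM males are the highest and the MSM males next, and for Nnt the B6-Chr1MSM males are the lowest while MSM, B6-Chr13TMSM and B6-Chr18MSM lie above the rest.

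No pathway or cell-type list had a called member off chromosome 1, where 0.00886% of the tested genes were called, so these counts say little of any one list. The lists covered cholesterol and fatty acid synthesis, fatty acid oxidation, bile acids, glucose metabolism, xenobiotic metabolism, sex-biased genes, the acute phase, interferon response, antigen presentation, the clock, stress responses, the cell cycle and markers of 10 cell types or tissues. For instance, 0 of 20 cholesterol genes, 0 of 34 xenobiotic genes and 0 of 27 acute-phase genes were called, with medians of -0.712, -0.147 and 1 residual SDs, against 0.0949 over all genes. Of the called genes, Susd4 is also on the male-biased list, Fmo2 on the female-biased list and Serpinc1 on the complement and coagulation list. Against B6, all 17 tested Kupffer cell markers lay above 0, from 0.0449 to 2.12 with a median of 1.08. All 15 tested genes of antigen presentation lay between 0.732 and 1.90, and none of either list passed the threshold. These values rest on the 2 B6 males. The Kupffer cell markers Slc11a1 and Slc40a1 differed by 0.65 and 0.31 residual SDs from B6, and by 0 and 0.33 from the 27 strains.

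MSM was compared with B6 for the differences of the donor strain itself. Against B6, 2957 genes were called in MSM, 24.7% of those tested (14.5% higher and 10.3% lower), with 164 on chromosome 1 (80 higher, 84 lower) and 2793 elsewhere. After quantile normalization of the deposited values the chromosome 1 split was 529 higher and 22 lower. MSM minus B6 and B6-Chr1MSM minus the other consomic strains use different males, so their signs can be set against each other. For the counts of signs, strains labelled with the gene's own chromosome from MSM were left out of the reference. For chromosome 1 genes this reference holds all 27 strains, and for most genes elsewhere it holds fewer. Of the 164 chromosome 1 genes, 147 (89.6%) had the same sign in B6-Chr1MSM, against 1259 of the 2793 genes elsewhere (45.1%); over all tested genes it was 66.9% on chromosome 1 and 47% elsewhere. After quantile normalization the chromosome 1 share was 24.9%. Of the 84 chromosome 1 genes called against the 27 strains, 83 had the same sign in MSM, and 68 were called there too.

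**Figure D5:**
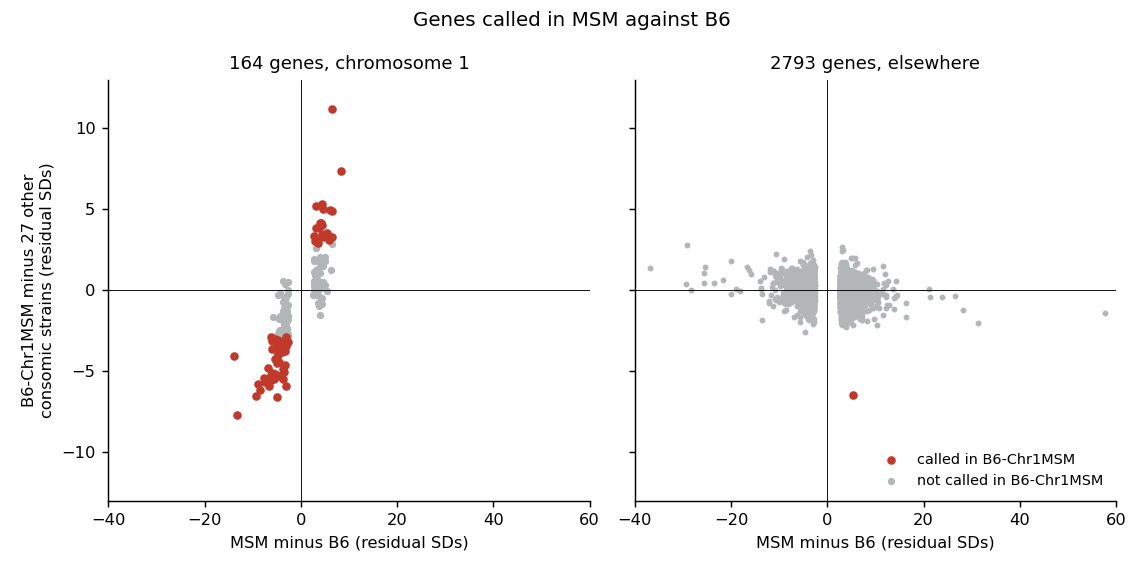
Genes called in MSM against B6, on chromosome 1 (left, 164 genes) and elsewhere (right, 2793 genes), with MSM minus B6 on the horizontal axis and B6-Chr1MSM minus the 27 other consomic strains on the vertical, both in residual SDs. On chromosome 1, 147 points share their sign on both axes, while elsewhere the points lie flat around 0 apart from Nnt.

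A contrast added after the data were seen set B6-Chr1MSM directly against MSM. It called 3013 genes, 25.2% of those tested (11% higher and 14.2% lower), of which 83 were on chromosome 1 (30 higher and 53 lower) and 2930 elsewhere (1288 higher and 1642 lower). After quantile normalization these splits were 13 and 535 on chromosome 1 and 340 and 9408 elsewhere. Among the 25 named chromosome 1 genes, 5 differed from MSM: Col5a2 and Nif3l1 were higher than in MSM, Casp8 and Gas5 were lower than in B6 but higher than in MSM, and Ppp2r5a was lower than in MSM. The other 20 did not pass, with limma adjusted p from 0.067 in Slc19a2 to 0.989 in Susd4.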

How the data were processed

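The authors deposited 1 table of log2 values per probe set for 120 Affymetrix whole-genome mouse arrays. How the probes were summarised and normalized is not stated in any source used here, and base 2 was inferred from the values' range. Of 45037 probe sets, 34945 carried 1 gene symbol in the platform annotation, 932 several and 9160 none; 34741 were matched by gene ID to RefSeq (GRCm38.p6), which gave symbols, chromosomes and gene order. The probe set with the highest mean stood for a gene. Genes were tested if at least 2 of 60 males exceeded the median of all values, 7.417.

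After averaging each male's 2 arrays, limma 3.58.1 in R 4.3.3 estimated a mean for every strain from the 60 males of 30 strains (30 residual and 0.592 prior degrees of freedom). Genes were called at a Benjamini-Hochberg adjusted p below 0.05. P-values rest on the spread between the 2 males of a strain, pooled over the 30 strains, and the number of males limits the precision. The fit was tested on simulated data.

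The rule for named genes took, among those called against B6 with both males beyond both B6 males and called the same way against the 27 strains, the 10 largest positive and 10 largest negative differences on chromosome 1, then the 5 largest absolute t, then up to 5 each way elsewhere, passing over clone names, with up to 4 called members of each of 37 gene lists. Members and lists were chosen with earlier results of these data known. Sequences are RefSeq's. Alternatives changed the filter, the normalization, the probe set, the prior, the arrays, the males and the strains of the reference.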

Additional observations from a re-analysis of the deposited data

Results flagged for a closer look

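In 6 of the 26 genes named by rule, the difference from B6 was not the same in B6-Chr1MSM as in MSM by the direct contrast of the 2 strains, added after the data were seen. Col5a2 was 0.1822 higher in B6-Chr1MSM than in MSM on the deposited log2 scale (limma adjusted p = 0.000143), with differences from B6 of 0.4035 in B6-Chr1MSM and 0.2213 in MSM. Nif3l1 was 0.0004314 higher (adjusted p = 0.0046). Casp8 and Gas5, lower than B6 in both strains, were 0.009275 (adjusted p = 0.0213) and 0.009505 (adjusted p = 0.000129) higher in B6-Chr1MSM than in MSM. Ppp2r5a differed by -0.0007232 (adjusted p = 0.019), being the lower in B6-Chr1MSM.

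Nnt was the gene whose differences from B6 ran in opposite directions, -0.0338 in B6-Chr1MSM and 0.0288 in MSM, and it was -0.06262 apart between them (limma adjusted p = 1.14e-10). In each of these genes both males of a strain lay on the same side of both males of the other.

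Of the 11 calls among probe sets that carry no single gene name, 2 were higher and 9 lower in B6-Chr1MSM than in B6; their share of 0.352% is near the 0.377% of the tested genes.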

How the results depend on the processing

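No paired analysis was possible because the males of different strains share no number in the labels that ties them, and male 1 and 2 are names in accession order. The share of tested genes called was higher on chromosome 1 than elsewhere in every alternative run against B6 and against the 27 strains, except the fit of 4 males; after quantile normalization, 246 genes were called elsewhere against the 27 strains (4 higher, 242 lower) and 57 on chromosome 1. On chromosome 1 against B6 (44 genes called), quantile normalization gave 12, every probe set 75, the first array of each male 18, the 4 males alone 0, and leaving out 1 male 15 to 25. Elsewhere against B6 (1), no intensity filter gave 2, quantile normalization 6, every probe set 3, the other array of each male 27, and leaving out 1 male 0 to 2. Against the 27 strains on chromosome 1 (84), every probe set gave 138, the first arrays 50 and leaving out 1 male 32 to 40. Elsewhere (1), no filter, a filter at the 75th percentile and the probe set with the largest variance each gave 2, every probe set and the other arrays each 3, and leaving out 1 male 1 to 2. For both males beyond all 56, chromosome 1 (72) gave 47 with the stricter filter, 32 after quantile normalization and 123 with every probe set; elsewhere (3) gave 5 without a filter, 77 after quantile normalization, and 8 with every probe set or the other arrays.

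For MSM against B6, chromosome 1 (164) gave 100 with the stricter filter, 551 after quantile normalization, 260 with every probe set, 96 with the first arrays and 93 to 108 without 1 male; elsewhere (2793) these gave 1776, 9578, 4282, 1546 and 1531 to 1816. For B6-Chr1MSM against MSM, chromosome 1 (83) gave 548 after quantile normalization, 147 with every probe set, 33 with the first arrays and 34 to 54 without 1 male; elsewhere (2930) these gave 9748, 4622, 1548 and 1581 to 2003. The share of MSM calls with the same sign (89.6%) was 24.9% after quantile normalization and 84 to 92.7% without 1 male. Quantile normalization moved the median gene to -0.185 residual SDs against B6 and -0.675 against the 27 strains, from 0.0949 and -0.000574, and turned Nif3l1 (-3.236e-06) and Ddx59 (-8.098e-06) against the 27 strains and Asnsd1 (0.0005459) against B6. The cause was not tested.

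Of the 26 named genes, 12 kept their call against B6 in all 4 fits without 1 male: Col5a2, Mgst3, Cnot11, Gas5, Adhfe1, Ppp2r5a, Brox, Ints7, Mtarc1, Gsta3, Adss and Asnsd1. Susd4, Fmo1, Fmo2, Ube2f, Stk25, Ndufb3 and Slc19a2 lost it in all 4, and the other 7 in 1 or 2. In such fits the lone male is assumed to vary like those of other strains. Of the same 26 calls, quantile normalization ended 15 and turned 1 (adjusted p from 0.104 for Susd4 to 1 for Ddx59 and Adss), the first arrays ended 11 and the unfiltered fit 4 (Susd4, Stk25, Ndufb3 and Slc19a2). The probe set with the largest variance ended 3 (Slc19a2, Mtarc1 and Gsta3). A robust prior, a trend on the mean level and the other arrays ended none.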

Other observations

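Among the 42 chromosome 1 genes called against the 27 strains but not against B6, some stand beside genes described above; they were picked after their values were seen. Cflar, which encodes an inhibitor of caspase-8 activation, lies next to Casp8 among the tested genes and was also lower, at -3.53 residual SDs against the 27 strains (limma adjusted p = 0.00581) and -3.47 against B6 (adjusted p = 0.199). Snhg6, like Gas5 a host of small nucleolar RNAs, was lower by the same comparison at -4.52 residual SDs (adjusted p = 0.000184), and at -3.69 against B6 (adjusted p = 0.144). Both were lower in MSM than in B6, Cflar at -4.85 residual SDs (adjusted p = 0.000478) and Snhg6 at -5.01 (adjusted p = 0.000333).

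The gene of this set farthest from the 27 strains on the lower side was Tmbim1, a transmembrane protein, at -5.59 residual SDs (limma adjusted p = 7.61e-06), and on the higher side Trip12, a ubiquitin ligase, at 4.88 (adjusted p = 5.18e-05). They missed the threshold against B6, with adjusted p of 0.0997 and 0.0718. MSM differed from B6 the same way in both, at -6.31 and 6.52 residual SDs.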
